A study of Mus musculus with 6 samples.

Results

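The calcium/calmodulin-dependent protein kinases (CaM kinases) and the endogenous inhibitors of CaM kinase II were examined in the transcriptome of the mouse forebrain under acute psychological stress. The group held 10 genes, found by symbol among the 23282 entries of the count tables, and each symbol occurred in 1 entry. The genes were Camk2a, Camk2b, Camk2g and Camk2d, which encode the 4 subunits of CaM kinase II (CaMKII), Camk2n1 and Camk2n2, which encode its inhibitor proteins, Camkk1 and Camkk2, which encode the upstream CaM kinase kinases, and Camk1 and Camk4, which encode kinases that the CaM kinase kinases switch on. All 10 were among the 15239 genes that passed the filter on low counts. They were chosen with their read counts and fold changes in this same contrast known, so that the values of the 10 genes below are a description and carry no test.

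CaM kinases turn a rise of calcium in the neuron into phosphorylation: calcium binds calmodulin, and calcium-bound calmodulin opens the kinase. CaMKII is a large holoenzyme of mixed subunits that is abundant at the postsynaptic density, where it is known for its part in synaptic plasticity, and its inhibitor proteins bind the active kinase. CaM kinase kinases phosphorylate CaMKI and CaMKIV, and CaMKIV acts in the nucleus, where it phosphorylates the transcription factor CREB.

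C57BL/6J male mice, 8 to 10 weeks old and with no genetic change named, stood for 1 h on a small platform that was surrounded by water (water avoidance stress, WAS) or, as controls, on the same platform in a container without water. Animals were killed at the end of the hour, and 1 forebrain hemisphere of each, without olfactory bulb and cerebellum, was used for RNA. There were 3 libraries per group, 1 per mouse, called WAS 1, 2 and 3 and control 1, 2 and 3 here by the number in their label, made by QuantSeq, which reads the 3′ end of polyadenylated transcripts. Groups follow the sample labels. The headings of the count columns are WC in the libraries labelled WAS and WS in those labelled control, and no source used here defines these headings, so directions are written for the labels and all of them would turn if the labels had been exchanged.

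The libraries held between 9248520 and 10502029 counts. They differed in regional gene lists, and these values touch the results below. The summed level of 10 genes of the striatum (9 of them tested) was 213, 2266 and 455 CPM (counts scaled to a library total of 1000000) for WAS 1, 2 and 3 and between 1151 and 1576 CPM under the control label. The level of 8 thalamic genes was 822, 350 and 685 CPM in WAS 1, 2 and 3, against 319 to 360 CPM, and that of 8 genes of midbrain monoamine neurons was 71.8, 29.5 and 134 CPM, against 22.1 to 23.0 CPM. WAS 1 and 3 therefore held less striatal and more thalamic and midbrain RNA than all other libraries, while WAS 2 lay near the controls for thalamus and above them for striatum. Genes of cortical and hippocampal excitatory neurons summed to 847 to 939 CPM under the WAS label and 920 to 1100 CPM under the control label, with 0 of 8 fitted above 0, and 6 pan-neuronal genes summed to 5833 to 6248 CPM and 6303 to 7044 CPM, without overlap. Of the 15 tissue and cell type lists, 13 had overlapping summed levels. The labelled tissue was checked on these lists. The 4 cerebellar genes summed to 20.4 to 22.3 CPM under the WAS label and 19.0 to 25.9 CPM under the control label. The most abundant of them, Pcp2, had 191 to 252 counts in each library. Cbln3 had 6 to 10 counts, Fat2 0 to 2, and the cerebellar granule cell gene Gabra6 0 or 1. Drd2, a defining gene of the striatum, also had 0 or 1 counts while the other striatal genes were present. Cbln3, Fat2, Gabra6 and Drd2 were chosen here after their values were seen. The part of the regional differences in the values of the CaM kinase genes was not tested beyond the left-out libraries and ratios given below.

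**Figure D1:**
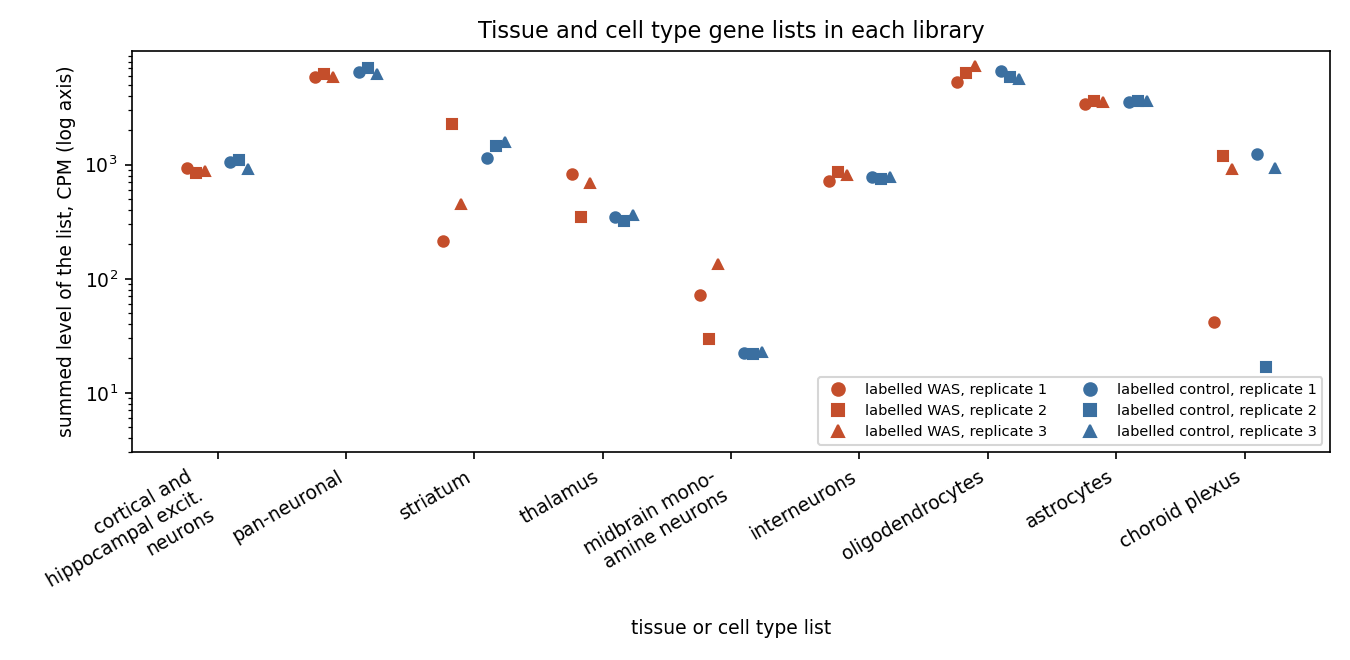
Summed level of 9 tissue and cell type gene lists (vertical log axis, CPM) in each of the 6 libraries, red for the WAS label and blue for the control label, with circle, square and triangle for replicates 1, 2 and 3. WAS 1 and 3 sit below the controls for striatum (213 and 455 CPM) and above them for thalamus (822 and 685 CPM), and WAS 2 (square) sits with or above the controls in both.

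The major neuronal CaMKII subunits had lower read counts in the libraries labelled WAS than in those labelled control, by less than the 1.5-fold criterion of the study. Camk2a encodes the alpha subunit, the hallmark kinase of forebrain excitatory neurons. Its level was 2239, 1997 and 1854 CPM in WAS 1, 2 and 3 and 2483, 2455 and 2529 CPM in control 1, 2 and 3. All 3 libraries labelled WAS lay below all 3 controls. The means were 2030 ± 195 CPM and 2489 ± 37.4 CPM (SD, n = 3 each), and the log2 fold change, WAS minus control as fitted by edgeR, was -0.33 with a standard error (SE) of 0.08. In these bulk samples, fewer cells of a type and less RNA per cell cannot be told apart. The last 500 bases of the longest Camk2a transcript hold 9 stretches of 50 bases that also occur in transcripts of 146 other genes, and because reads with multiple alignments were counted, the Camk2a count is uncertain to that extent; the other 9 genes held no such stretch.

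Camk2b (chr11:5969644-6066362, minus strand, GRCm38), the gene of the beta subunit that binds actin, had 452, 464 and 418 CPM in WAS 1, 2 and 3. The control 1, 2 and 3 had 468, 510 and 532 CPM. The groups did not overlap, although the gap between WAS 2 and control 1 was narrow, and the log2 fold change was -0.22 (SE 0.09). Camk2g (chr14:20734875-20794088, minus strand), which encodes the gamma subunit, had 118, 109 and 115 CPM under the WAS label against 140.2, 142 and 123 CPM under the control label. Again the groups did not overlap, and the log2 fold change was -0.28 (SE 0.09). WAS 2 was the lowest of the 6 libraries for Camk2g and lay below the controls for Camk2a and Camk2b. It was also the lowest library for the summed genes of cortical and hippocampal excitatory neurons, at 847 CPM against 920 to 1100 CPM in the controls, and the part of these genes in the CaMKII values was not tested.

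Camk2d (chr3:126596302-126846326, plus strand) had the opposite sign. It encodes the delta subunit, the form best known from the heart. Its counts were 742, 575 and 817 in WAS 1, 2 and 3 and 416, 477 and 597 in control 1, 2 and 3. Scaled to the library total, these were 73.7, 62.2 and 81.8 CPM against 39.6, 46.0 and 59.8 CPM. The groups did not overlap, and WAS 2 lay only just above control 3. The means were 72.6 ± 9.88 CPM and 48.5 ± 10.3 CPM (SD, n = 3 each), and the log2 fold change was 0.54 (SE 0.15), with a range of 0.41 to 0.73 when each library was left out in turn. Thalamic and midbrain genes were also higher in WAS 1 and 3, as given above, and their part in the Camk2d difference was not tested.

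Ratios within a library do not depend on how the libraries are scaled. Reads from 3′ ends count transcripts without regard to their length, but capture can differ between genes, so a ratio is read here only between libraries. Of all reads of the 4 CaMKII genes, Camk2d took 2.56%, 2.36% and 3.32% in WAS 1, 2 and 3 and 1.27%, 1.46% and 1.85% in the controls. This share did not overlap between the groups. Camk2a took 77.7%, 75.9% and 75.1% under the WAS label and 79.3%, 77.9% and 78.0% under the control label, again without overlap. The shares of Camk2b (15.69% to 17.64% against 14.96% to 16.39%) and Camk2g (4.10% to 4.66% against 3.79% to 4.51%) overlapped. The sum of the 4 genes was 2884, 2632 and 2469 CPM in WAS 1, 2 and 3 and 3131, 3152 and 3243 CPM in the controls.

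The 2 inhibitor genes differed from each other in direction of the fitted value. Camk2n1 (chr4:138454314-138460123, plus strand) was by far the most counted gene of the group and had rank 6 of all entries in 5 of the 6 libraries and rank 4 in control 3. It had 6929, 9025 and 6789 CPM in WAS 1, 2 and 3 and 10420, 10540 and 10594 CPM in control 1, 2 and 3. Every library labelled WAS lay below every control, and the controls lay close together: the means were 7581 ± 1252 CPM and 10518 ± 89.3 CPM (SD, n = 3 each). The log2 fold change was -0.51 (SE 0.10). WAS 2 lay between the other libraries labelled WAS and the controls, and the log2 fold change was -0.65 without it and -0.26 with it as the only library labelled WAS. After quantile normalization, the scaling used by the study, it was -0.09 (SE 0.11) by limma, since the gene had nearly the same rank in all libraries. The paralogue Camk2n2 (chr16:20619215-20621287, minus strand) had 121, 85.9 and 119 CPM under the WAS label and 88.7, 83.2 and 80.9 CPM under the control label. WAS 1 and 3 were above the controls and WAS 2 was within their range, so the groups overlapped, with a log2 fold change of 0.33 (SE 0.12). Gm49333, an annotated protein-coding gene on the other strand, overlaps the last 1000 bases of Camk2n2, and since no source used here states that strand was used in counting, reads of the pair cannot be told apart.

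The coding sequences show how alike the inhibitor genes are, since reads were also counted at multiple alignments. Both were read from the GENCODE M21 transcripts on GRCm38, without the stop codon: Camk2n1 has 234 coding bases (78 codons, between 138455186 and 138456785 of chromosome 4, plus strand) and Camk2n2 has 237 (79 codons, between 20620176 and 20621194 of chromosome 16, minus strand). Aligned over 237 columns with 3 gap columns they were identical at 167 bases (70.5%), and capitals mark the 6 runs of at least 8 identical bases, the longest of 23 bases.
Camk2n1: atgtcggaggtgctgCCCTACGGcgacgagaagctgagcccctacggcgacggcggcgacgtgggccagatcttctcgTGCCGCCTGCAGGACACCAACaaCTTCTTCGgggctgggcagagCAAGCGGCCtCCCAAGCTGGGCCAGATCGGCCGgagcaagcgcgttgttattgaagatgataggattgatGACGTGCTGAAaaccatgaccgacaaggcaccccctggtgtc
Camk2n2: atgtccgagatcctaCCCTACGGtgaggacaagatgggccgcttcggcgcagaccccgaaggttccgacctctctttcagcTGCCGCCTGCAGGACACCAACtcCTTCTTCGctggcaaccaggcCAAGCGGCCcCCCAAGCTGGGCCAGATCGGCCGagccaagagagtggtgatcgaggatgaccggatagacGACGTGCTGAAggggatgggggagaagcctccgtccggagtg
No run reached the read length of 75 bp, and the last 500 bases of the transcripts, where 3′ reads fall, shared no stretch of 50 bases with each other.

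Camk2n1 gave 57.4, 105 and 57.1 reads per Camk2n2 read in WAS 1, 2 and 3 and 117, 127 and 131 in the controls, without overlap. Set against its target, Camk2n1 gave 2.40, 3.43 and 2.75 reads per read of the 4 CaMKII genes under the WAS label and 3.33, 3.34 and 3.27 under the control label. WAS 1 and 3 were below the controls on this ratio, and WAS 2 was above them.

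**Figure D2:**
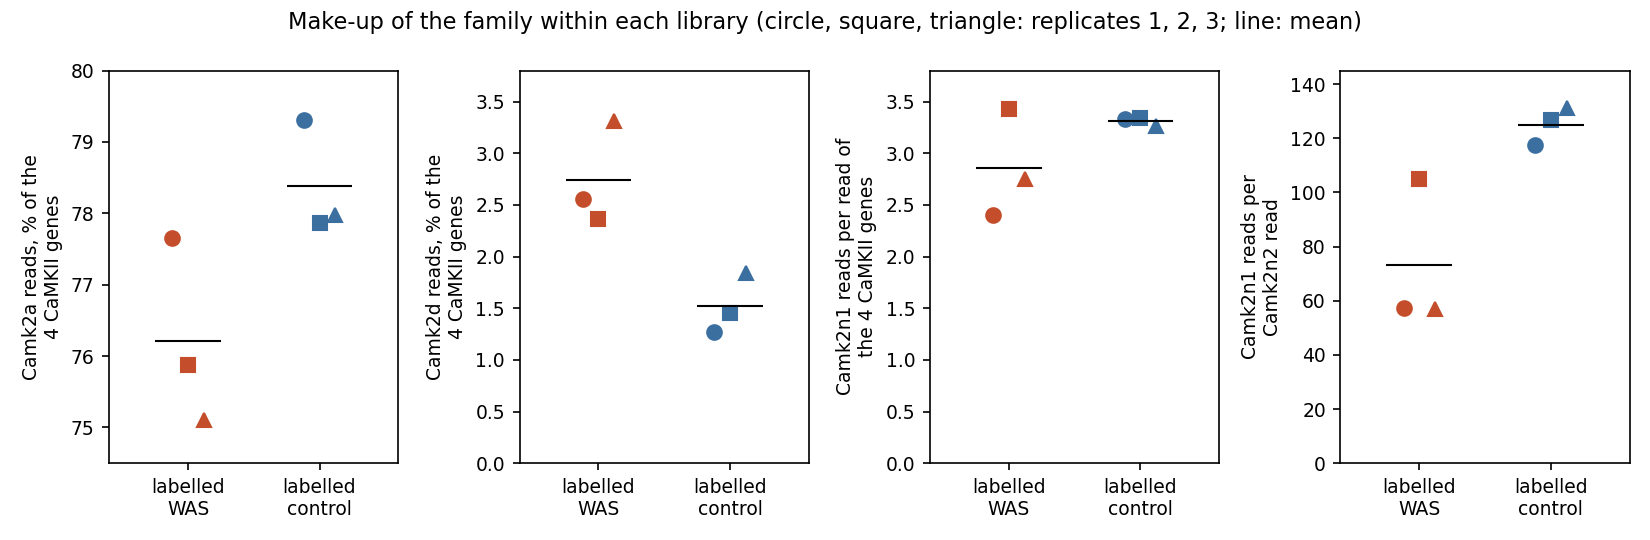
Ratios between the genes within each library, for the groups labelled WAS (red) and control (blue): the Camk2a and Camk2d shares of the reads of the 4 CaMKII genes in percent, Camk2n1 reads per CaMKII read, and Camk2n1 reads per Camk2n2 read. Points are libraries (circle, square, triangle for replicates 1, 2, 3), lines are means of 3, and the Camk2a axis does not start at 0; the Camk2d share lies between 2.36% and 3.32% under the WAS label and between 1.27% and 1.85% under the control label.

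The promoters of Camk2d and Camk2n2, the 2 genes of the group with a positive fitted value and an SE well below it, are shown because CREB, a substrate of CaMKIV, binds DNA at the letters TGACG. RefSeq promoter windows on GRCm38.p6, here the 250 bases before the start site, were matched for 6 of the 10 genes. Capitals mark a match to TGACG on either strand (CGTCA when on the other strand). The Camk2d window is chr3:126596701-126596950, plus strand, and holds no match. The windows follow RefSeq starts, while the gene coordinates given here are from GENCODE. By those coordinates the Camk2d and Camk2b windows lie inside their genes, and the Camk2n2 and Camk1 windows reach into theirs. These windows therefore do not describe the bases before the GENCODE gene starts. The Camk2n2 window is chr16:20621279-20621528, minus strand, and holds 1.
Camk2d: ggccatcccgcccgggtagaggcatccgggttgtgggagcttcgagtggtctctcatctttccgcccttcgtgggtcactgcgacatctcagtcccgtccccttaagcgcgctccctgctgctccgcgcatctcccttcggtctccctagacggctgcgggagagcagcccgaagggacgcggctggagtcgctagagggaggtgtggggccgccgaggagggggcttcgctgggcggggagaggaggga
Camk2n2: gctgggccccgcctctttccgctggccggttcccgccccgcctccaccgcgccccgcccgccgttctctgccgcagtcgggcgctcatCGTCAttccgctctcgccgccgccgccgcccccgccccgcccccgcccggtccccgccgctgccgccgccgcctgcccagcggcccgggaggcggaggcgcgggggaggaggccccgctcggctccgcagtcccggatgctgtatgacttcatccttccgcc
TGACG was found in 3 of the 6 windows (Camk1, Camkk1 and Camk2n2) and in 17.8% of 32851 windows of the same length. The letters GGGCGG, bound by Sp1, occurred 3 times in the Camk2d window and 6 times in the Camk2n2 window, both strands counted, and at least once in 32.7% of all windows. Genes with negative fitted values had these letters too, with 3 matches for Camk2b and 1 for Camkk2, and Camkk1 had 2 and Camk1 had 0. The GC content was 68.4% for Camk2d and 80% for Camk2n2, and also 78.4% for Camk2b, 72.4% for Camkk2, 74.4% for Camkk1 and 58% for Camk1, against a median of 52.4% over all windows. A match is a string of letters and not a measured binding site.

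The upstream kinases differed in how far their libraries spread. Camkk2 (chr5:122731170-122779409, minus strand), the CaM kinase kinase that also phosphorylates AMP-activated protein kinase, had 281, 466 and 273 CPM in WAS 1, 2 and 3 and 492, 531 and 401 CPM in control 1, 2 and 3. WAS 1 and 3 were below all controls and WAS 2 was inside their range. The means were 340 ± 109 CPM and 475 ± 66.5 CPM (SD, n = 3 each), with a log2 fold change of -0.52 (SE 0.18). Without WAS 2 it was -0.81, and with WAS 2 as the only library labelled WAS it was -0.06. Camkk1 (chr11:73019008-73042073, plus strand), the other CaM kinase kinase, had 76.8, 78.7 and 82.5 CPM against 85.7, 82.8 and 62.7 CPM. The groups overlapped and the log2 fold change was 0.01 (SE 0.11). Camkk2 gave 3.66, 5.93 and 3.31 reads per Camkk1 read under the WAS label and 5.74, 6.41 and 6.40 under the control label.

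Camk4, whose kinase signals to the nucleus, had 154, 262 and 164 CPM in WAS 1, 2 and 3 and 237, 273 and 230 CPM in the controls. As for Camkk2, WAS 1 and 3 lay below all controls and WAS 2 lay within their range. The log2 fold change was -0.39 (SE 0.17), it was -0.67 without WAS 2, and it was 0.05 with that library as the only one labelled WAS. WAS 1 and 3 were also the lowest libraries for the striatal list, in which WAS 2 lay above the controls, and the part of striatal RNA in the values of Camkk2 and Camk4 was not tested. Camk1 (chr6:113334124-113343984, minus strand), the gene of the cytosolic kinase CaMKI, had 132, 117 and 114 CPM against 115, 131 and 101 CPM. The groups overlapped and the log2 fold change was 0.03 (SE 0.11). Ogg1, on the other strand, overlaps the last 1000 bases of Camk1, and their reads cannot be told apart without strand.

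**Figure D3:**
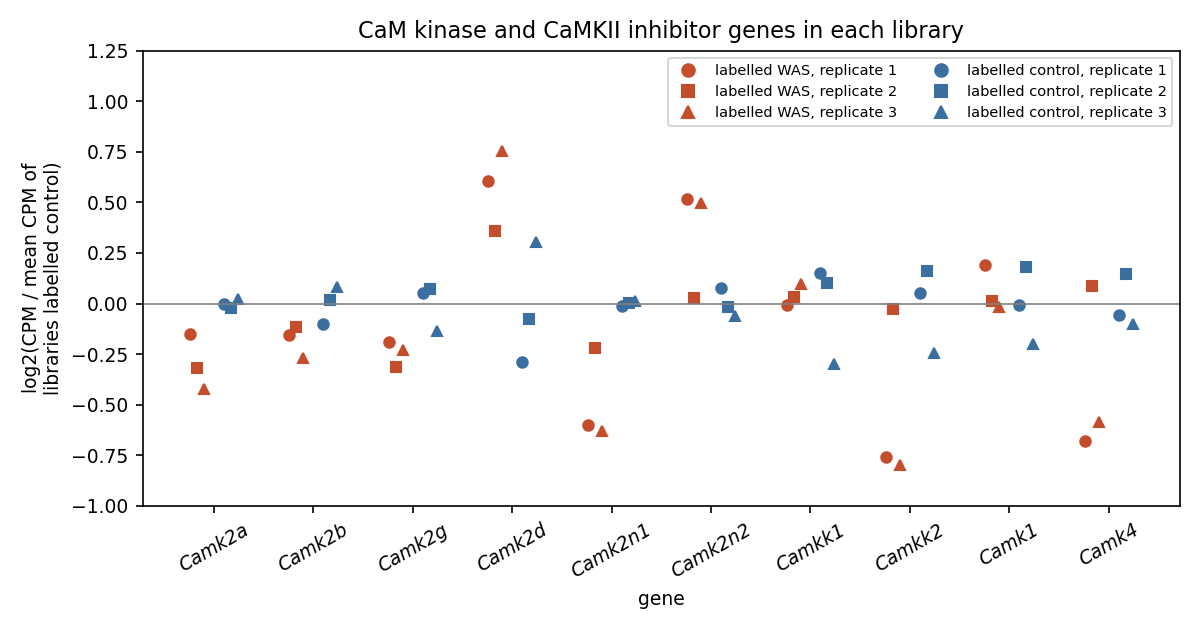
Level of the 10 genes in each library, as log2 of its CPM over the mean CPM of the 3 libraries labelled control (vertical axis), red for the WAS label and blue for the control label, with circle, square and triangle for replicates 1, 2 and 3. All red points lie below all blue points for Camk2a, Camk2b, Camk2g and Camk2n1 and above them for Camk2d, and the red square (WAS 2) lies among the blue points for the other 5 genes.

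Counted over the group, 6 of the 10 genes had a log2 fold change under 0, where 49.8% of the 15239 genes tested did. The median was -0.25 for the 10 genes and 0.00088 for all genes, and the median size of the log2 fold change was 0.33 and 0.13. The groups did not overlap for 4 genes in the lower direction, where 3.76% of all genes tested did so, and for 1 gene in the higher direction, where 8.42% did. An unadjusted p under 0.05 was met by 8 of the 10 genes (7.24% of all genes tested, and 10.6% of the 3413 genes with a mean of at least 60.5 CPM, the lowest mean of the group), by 6 in the lower direction (3.4% of all genes) and by 2 in the higher direction (3.85%). The criteria of the study, which combine a fold change of 1.5 or more with an unadjusted p under 0.05, were met by 0 of the 10 genes and by 2.49% of all genes tested. These were 380 genes, 277 higher and 103 lower under the WAS label. The paper reported far fewer genes at these cutoffs and does not name its test, so its list is not reproduced here. At an adjusted p under 0.05 there were 0 of the 10 and 0 of all 15239 genes (0%), with 1104 genes at an unadjusted p under 0.05 in the same quasi-likelihood test of edgeR and 22 genes at the adjusted threshold in DESeq2. Because the 10 genes were chosen on this contrast, nothing is read from these counts.

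The count of genes past the criteria depended most on WAS 2. Without that library, 825 genes (5.41% of those tested) met the criteria of the study, and Camk2d, Camk2n1, Camk4 and Camkk2 were among them, while without control 3 there were Camk2d and Camkk2 among 452 genes. The replicate number was also used as a block, a pairing that no label states and that was taken from these same counts. With it, 49 genes (0.322%) passed the adjusted threshold. Camk2n1 was the only one of the 10 among them, with a log2 fold change of -0.52. Camk2a, Camk2b, Camk2d, Camk2g, Camk2n1 and Camkk2 kept the sign of the fitted value under all 13 alternatives. Camk2n2 and Camk4 did so under 12, with WAS 1 and 3 left out as the exception, and Camk1 and Camkk1, with values near 0, under 10. With WAS 2 as the only library labelled WAS, the log2 fold changes were -0.36 (SE 0.10) for Camk2a, -0.16 (SE 0.11) for Camk2b, -0.36 (SE 0.12) for Camk2g, 0.32 (SE 0.18) for Camk2d and -0.26 (SE 0.09) for Camk2n1, and -0.01 (SE 0.12) for Camk2n2; this fit takes the lone library to vary as the controls do.

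**Figure D4:**
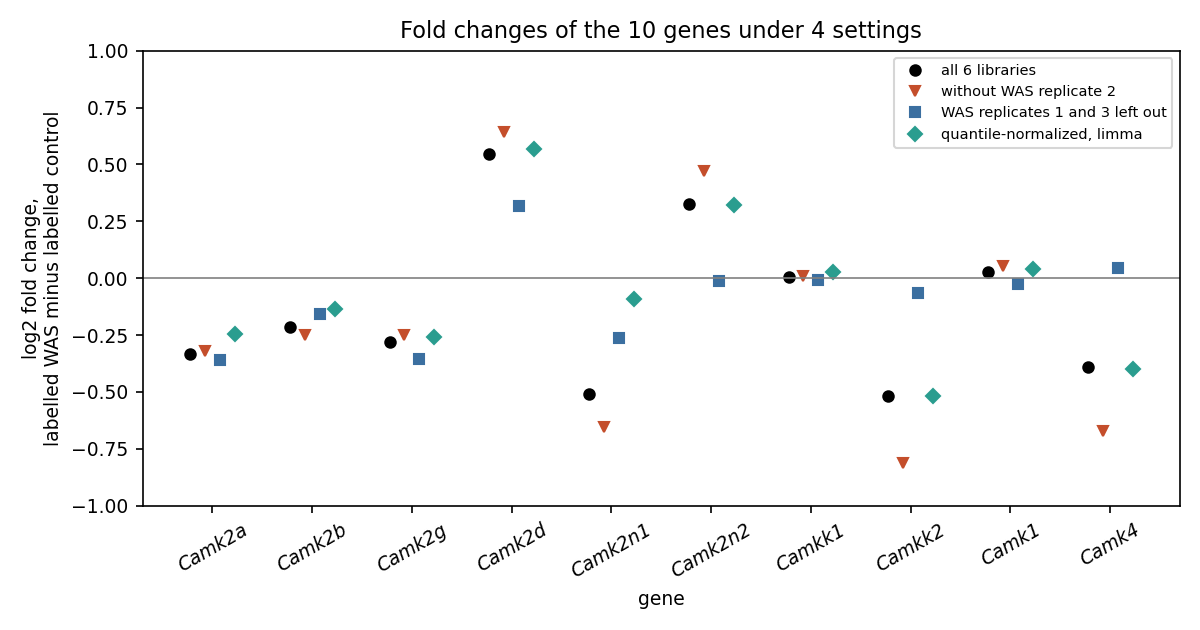
Fitted log2 fold change, WAS minus control (vertical axis), of the 10 genes with all 6 libraries (black circles), without WAS 2 (red triangles), with WAS 1 and 3 left out (blue squares), and with limma on quantile-normalized counts (green diamonds). Camk2a lies between -0.36 and -0.24 in all 4 settings, Camkk2 spreads from -0.81 to -0.06, and Camk4 from -0.67 to 0.05.

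Levels were also set against neuronal genes of the same library, an alternative added after seeing the data because pan-neuronal and excitatory genes were themselves lower under the WAS label. Slc17a7 encodes the vesicular glutamate transporter of cortical excitatory neurons and had a log2 fold change of -0.32 (SE 0.09). Camk2a gave 9.70, 7.69 and 8.11 reads per Slc17a7 read in WAS 1, 2 and 3 and 9.17, 8.25 and 8.29 in the controls, so that the groups overlapped. Camk2n1 gave 30.03, 34.73 and 29.69 reads per Slc17a7 read against 38.46, 35.41 and 34.72, which also overlapped, if only by WAS 2. Per Slc17a7 read, 0 of the 10 genes were lower without overlap (0.42% of all genes tested were), 4 were higher (Camk2b, Camk2d, Camk2n2 and Camk1), where 35.7% of all genes were, and 6 overlapped. Division by a gene that is itself lower under the WAS label raises all ratios there, so the 4 are not read as a result. Syt1 encodes synaptotagmin 1, a calcium sensor of neurotransmitter release in neurons at large. Per Syt1 read, 1 gene was lower without overlap (Camk2n1, at 2.95, 3.74 and 2.99 against 4.04, 3.75 and 3.94), 3 were higher (Camk2d, Camk2n2 and Camk1) and 6 overlapped. Of all genes tested, 0.696% were lower and 30.1% higher without overlap per Syt1 read, whose own log2 fold change was -0.24. How much of the difference in Camk2a, Camk2b and Camk2g goes with the neuronal genes was not tested beyond these ratios.

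The other genes of the pathway were taken from 5 lists, of which all 68 listed genes were tested. In the quasi-likelihood test of edgeR, with p adjusted by Benjamini-Hochberg over all genes, 0 of the 68 passed an adjusted p of 0.05, with a smallest adjusted p of 0.477, and 0 met the criteria of the study; 12 (17.6%) had an unadjusted p under 0.05, 4 higher and 8 lower, where 7.24% of all genes tested did. Log2 fold changes under 0 were found for 46 of the 68 (67.6%, against 49.8% of all genes), with a median of -0.09. The signs of the list medians rested on WAS 1 and 3 for 3 of the 5 lists: with both left out, the medians were 0.0266 for the other kinases, 0.114 for the phosphatases and 0.00478 for the postsynaptic genes, and they were -0.0661 for calmodulin and its buffers and -0.112 for the targets. Without WAS 1 alone the phosphatase median was -0.00513, and the median of the targets was 0.0255 under total-count scaling and 0.0235 without WAS 2. Of the 14 other CaM kinases and calmodulin-regulated kinases, 1 gene in each direction had an unadjusted p under 0.05, and the list's median was -0.06. Its most abundant genes were Dclk1, a microtubule-binding kinase of the CaM kinase family, at 544 ± 64.0 CPM and 613 ± 69.9 CPM (log2 fold change -0.21, SE 0.11, and -0.0377 with WAS 1 and 3 left out), and Camk1d, a CaMKI paralogue, at 229 ± 21.3 CPM and 230 ± 14.1 CPM (-0.04, SE 0.09). The CaMKI paralogues Camk1g (-0.33, SE 0.09) and Pnck (0.48, SE 0.17), named after their values were seen, were the 2 past the unadjusted threshold.

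Calmodulin-binding buffers set how much calmodulin is free to reach the kinases. In the list of 7 calmodulin genes and calmodulin-binding buffers, 6 had values under 0, 2 had an unadjusted p under 0.05, both lower, and the median was -0.17. Nrgn, the gene of neurogranin, which holds calmodulin in the dendritic spine, had 42463, 50645 and 37456 counts against 60620, 68051 and 52586 counts. Its groups were apart in number of reads, though they overlapped in CPM, and the log2 fold change was -0.42 (SE 0.13; edgeR adjusted p = 0.539). With the replicate block the adjusted p of Nrgn was 0.0327, and without WAS 2 it was 0.00199, with a log2 fold change of -0.59. With WAS 1 and 3 left out the log2 fold change was -0.14 (SE 0.11).

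Among 15 phosphatases that oppose CaM kinases, with their regulators, 10 had values under 0, 1 gene in each direction had an unadjusted p under 0.05, and the median was -0.09. Ppp3ca and Ppp3r1 encode a catalytic and a regulatory subunit of calcineurin, the phosphatase that calmodulin activates. Ppp3ca was at 4611 ± 1043 CPM and 5220 ± 326 CPM (log2 fold change -0.22, SE 0.13; edgeR adjusted p = 0.783). The log2 fold change of Ppp3ca was -0.42 without WAS 2 (edgeR adjusted p = 0.0057), -0.11 without WAS 1 and 0.11, with the opposite sign, when WAS 1 and 3 were left out. Ppp3r1 was at 1493 ± 143 CPM and 1546 ± 234 CPM (-0.09, SE 0.11). Ppp1r1b, the gene of the striatal phosphatase inhibitor DARPP-32, had 404, 5569 and 1162 counts in WAS 1, 2 and 3 and 2890, 3984 and 4121 counts in the controls. Its log2 fold change was -0.54 (SE 0.67) and did not meet the criteria of the study. It met them at -1.36 with the replicate block and at -2.23 without WAS 2, and in the other direction, at 0.71, with WAS 1 and 3 left out.

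Of the 13 postsynaptic partners and substrates of CaMKII, 9 had values under 0, 2 genes in each direction had an unadjusted p under 0.05, and the median was -0.16. Gria1, which encodes the glutamate receptor subunit GluA1, a substrate of CaMKII, was at 635 ± 109 CPM and 514 ± 48.9 CPM (log2 fold change 0.27, SE 0.12; edgeR adjusted p = 0.686), and its log2 fold change was 0.12 without WAS 1 and 0.0265 with WAS 1 and 3 left out. Kalrn, which encodes kalirin, an exchange factor of the dendritic spine, was at 441 ± 50.9 CPM and 531 ± 73.6 CPM (-0.30, SE 0.11; edgeR adjusted p = 0.625). Of the 19 targets of CaM kinase kinase, CaMKI and CaMKIV, 11 had values under 0, 2 had an unadjusted p under 0.05, both lower, and the median was -0.01. Mef2c, a transcription factor gene of excitatory neurons, had 18968, 18875 and 16479 counts in WAS 1, 2 and 3 and 26769, 26416 and 21132 counts in the controls. The groups did not overlap, the log2 fold change was -0.41 (SE 0.10) and the edgeR adjusted p was 0.477, or 0.0444 with the replicate block and 0.00988 without WAS 2. With WAS 1 and 3 left out the log2 fold change was -0.28. Crebbp, the gene of the CREB-binding protein, had a log2 fold change of -0.01 (SE 0.08), and Creb1, named after its values were seen, of 0.04 (SE 0.08).

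**Figure D5:**
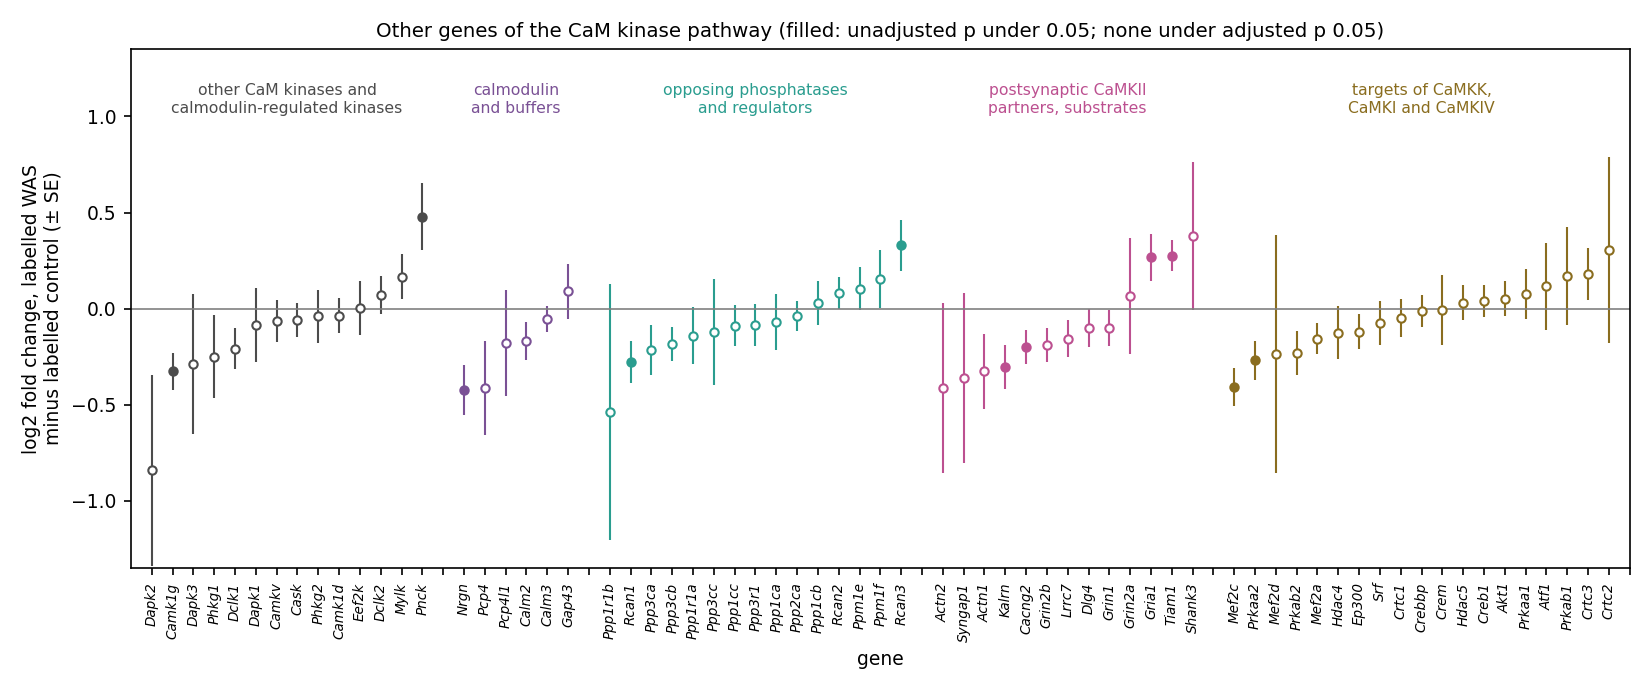
Log2 fold change, WAS minus control, with its SE (vertical axis) of 67 other genes of the CaM kinase pathway, sorted within 5 lists, where filled points have an unadjusted p under 0.05 in edgeR's test. Filled points number 4 above and 7 below 0, and Pnck (0.48) is the highest of them and Nrgn (-0.42) the lowest.

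The genes whose pattern over the 6 libraries was most like that of Camk2a and of Camk2d, the gene of the group with the widest range, were found by the root mean square difference of centred log2 CPM, divided by the root mean square deviation of the gene itself, among 11167 genes with a mean of at least 50 counts. For Camk2a these were Gpr26 (0.26), Sel1l3 (0.29), Gcc2 (0.30), Fbxo31 (0.32) and Gatad2b (0.35). Gpr26, the nearest, had 269, 229 and 212 counts in WAS 1, 2 and 3 and 312, 316 and 317 counts in the controls, so that it had the same order of WAS replicates as Camk2a. For Camk2d they were Gm2115 (0.15), Mettl17 (0.18), C4b (0.21), Cmbl (0.21) and Hpcal1 (0.22). Hpcal1, the most counted of these, had 490, 365 and 603 counts under the WAS label and 292, 302 and 394 counts under the control label. These genes were picked for likeness over 6 libraries that share the same regional differences, and the values are a description.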

How the data were processed

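RNA from 1 forebrain hemisphere of 3 mice labelled WAS and 3 labelled control was sequenced with a QuantSeq 3′ kit (single-end, 75 bp). Alignment was with Bowtie2, and the authors took counts per gene with Bedtools from reads aligned once or several times; the submitters' processing notes name mm10, the build called GRCm38 here. The deposited values were raw read counts per gene symbol (44 symbols repeat and were kept as separate rows), with no normalization in them. Total counts per library lay between 9248520 and 10502029. The counts carry no molecular identifiers, so counting error understates technical error.

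Levels of the 10 genes are CPM, counts scaled to the library total. Fold changes came from edgeR 4.0.16 (R 4.3.3) by its quasi-likelihood test with TMM scaling (factors 0.976 to 1.01), fitted to 15239 genes. These had log2 values of 2 or more on average after quantile normalization and addition of 1 count, one reading of the cutoff in the paper. The test was run with Benjamini-Hochberg adjustment over these genes. A two-sided permutation test on groups of 3 cannot go below p = 0.1 and was not run. The common biological coefficient of variation was 14%. The steps were tested on simulated counts with planted changes larger than those of the 10 genes, the same spread for all genes and no regional differences. That test therefore does not cover changes of the size given here or libraries that differ in region.

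The 10 genes and the lists were chosen with earlier results of these data known. Named genes are the 10, the 2 most abundant of each of the 5 pathway lists and any past the criteria of the study, the most abundant of a tissue list, and the 5 nearest in pattern to Camk2a and Camk2d; others are said to be chosen after their values were seen. Alternatives were total-count scaling, DESeq2 1.42.0, limma 3.58.1 on quantile-normalized counts, 2 other filters, each library left out and a block for the replicate number. Leaving out WAS replicates 1 and 3 together, the ratios to Slc17a7 and Syt1 and the values of Ppp1r1b by setting were added after seeing the data.

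The labels do not say that replicate numbers pair the mice. Deviations from the group means correlated at 0.116, 0.179 and 0.131 between same-numbered libraries and at -0.00379 or less between others, over 11168 genes. Since deviations are centred within each group, positive values for same-numbered libraries push the others below 0. Blocked values are given where they change a call. The pairing was taken from these same counts, so calls made with the block are no independent support. Coordinates and coding sequences are from GENCODE M21, and promoters from RefSeq on GRCm38.p6. Coordinates of Camk2a and Camk4, and 1 gene that the rule names, are not reported here. The metabolomics data were not analysed here.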

Additional observations from a re-analysis of the deposited data

How the results depend on the processing

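With the replicate block, 49 genes and 1 of the 10 (Camk2n1) passed an adjusted p of 0.05, and 1 phosphatase list gene (Ppp1r1b) met the criteria of the study, against 0 in each case without it; the pairing of libraries in the block brought Nrgn and Mef2c past the adjusted threshold and changed no other call at that threshold or at the criteria of the study among the named genes and lists; counts at an unadjusted p under 0.05 were 1104 genes without the block and 1428 with it. DESeq2 gave 22 genes and 1 of the 10 (Camk2n1) at that threshold. Leaving out 1 library at a time gave 264 to 825 genes and 0 to 4 of the 10 past the criteria of the study, and 0 to 491 genes and 0 to 5 of the 10 past the adjusted threshold. In the lists it gave 0 to 2 other kinases, 0 to 3 calmodulin and buffer genes, 0 to 1 phosphatase, 0 to 2 postsynaptic genes and 0 to 1 target past the criteria. The upper ends came without WAS replicate 2 (Pnck, Nrgn, Pcp4, Pcp4l1, Ppp1r1b, Actn1 and Actn2), apart from Pnck and Dapk2 without control replicate 3 and Crtc2, with Shank3, without WAS replicate 1. With WAS replicates 1 and 3 both left out, 1 gene passed the adjusted threshold, 1 phosphatase (Ppp1r1b, in the opposite direction to its other calls), 1 postsynaptic gene (Shank3) and 1 target (Crtc2) met the criteria, and the median of the 10 genes was -0.0458. Under quantile normalization that median was -0.11. Some signs changed: Crebbp was 0.0255 under total-count scaling, 0.0118 under quantile normalization and -0.0601 to 0.0358 with 1 library left out; Camk1d was -0.0799 to 0.0358 with 1 library left out and 0.0319 with WAS replicates 1 and 3 left out; Ppp3r1 was -0.191 to 0.0204 and 0.0598 likewise, and Ppp3ca, at -0.216 with all libraries, was 0.114 with both left out. The cause was not tested. Total-count scaling moved the median log2 fold change of all genes to 0.04. Each of the 10 genes had at least 416 counts in each library. How much depth and the spread between 3 mice each limit the comparison was not measured.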

Other observations

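Quantile normalization, which gives genes of equal rank an equal value, removed most of the difference in Camk2n1: its log2 fold change was -0.09 (SE 0.11) by limma on quantile-normalized counts and -0.51 by edgeR. Camk2n1 had 69759, 83467 and 67779 counts in WAS replicates 1, 2 and 3 and 109430, 109414 and 105709 counts in the controls. It held rank 6 in 5 libraries and rank 4 in control replicate 3, and was therefore set to 89750 in 5 libraries and to 108308 in the last. For Camk2d, with ranks between 2582 and 4832, the value was 0.57 after quantile normalization and 0.54 by edgeR.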
